A study of Mus musculus with 15 samples.

Results

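OPA1 carrying the V465F substitution was compared with wild-type OPA1 in N2a cells, a mouse neuroblastoma line, by RNA sequencing. The 6 libraries of the comparison, 3 with V465F and 3 with wild type, were taken by their sample labels from the 15 libraries of the series. In all 6, siRNA against Opa1 (50 nM) and a plasmid encoding OPA1 were delivered together, and RNA was taken on day 3. The cells of each side therefore carried the same siRNA, and the sides differed, as far as the labels say, in the plasmid: V465F, in which a phenylalanine replaces a valine, or wild type. The remaining libraries, 3 a group, were a V560F mutant of OPA1 with the same siRNA, a knockdown group with the siRNA and a control plasmid, and a control group with control siRNA and control plasmid. The labels give no batch, plasmid preparation or transfection date, so an effect of V465F and one of its plasmid preparation or handling cannot be told apart. They also do not say that replicates came from separate cultures. The p-values thus rest on a spread between libraries that may be technical.

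OPA1, a GTPase of the dynamin family, sits in the inner membrane of mitochondria. It fuses inner membranes and holds the cristae junctions tight, which keeps cytochrome c inside the cristae, and the proteases OMA1 and YME1L1 cut it into long and short forms. Mutations of OPA1 are the main known cause of dominant optic atrophy, a loss of retinal ganglion cells, and the V465F change lies in the GTPase domain, the part of the protein that hydrolyses GTP.

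Deposited gene counts totalled 20070123 to 22188334 in the V465F libraries and 23916352 to 27809960 in the wild-type libraries. The filter on low counts left 13074 of 22507 genes for testing. Levels are CPM, the gene's count relative to its TMM-scaled library total, given for replicates 1, 2 and 3 in that order or as mean ± SD (n = 3), and a difference is a log2 fold change of V465F over wild type with its standard error. A gene was called at a Benjamini-Hochberg adjusted p under 0.05 in edgeR's quasi-likelihood test, and "rose" and "fell" are used of called genes only. Libraries of V465F held less signal from long transcripts. Set against the mean of all libraries, the level of a gene changed with the log10 of its transcript length by a slope of -0.304 to -0.219 with V465F and -0.068 to 0.220 with wild type, genes with a count numbered 16089 to 16175 against 16737 to 16992, and the 50 most abundant genes took 21.5 to 22.2% of counts against 19.2 to 20.3%. Each of these measures separated the groups (exact two-sided permutation test, p = 0.1, the smallest that 3 against 3 allows). For this reason a second value, taken after removing from every library its dependence on transcript length and GC content and called the corrected value below, stands beside a gene or list where it changes the call or moves the value by over 1.5 times. Wild-type replicate 3 stood apart from its group in the slope, as did replicate 2 of V560F, and counts without these libraries are given where they lead. In bulk RNA, fewer cells of a kind and less RNA per cell cannot be told apart.

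The targeted gene was read first. Opa1 (Entrez gene 74143) was at 29.5, 33.9 and 30.7 CPM with wild type and at 33.6, 34.8 and 33.4 CPM with V465F, and the ranges overlapped. The log2 fold change was 0.11 ± 0.0871 (edgeR adjusted p = 0.333; exact permutation p = 0.3), and the corrected value was 0.27 (edgeR adjusted p = 0.00299). Control libraries without the siRNA held 90.2, 98.2 and 99.2 CPM, above every library of either side of the comparison. Knockdown libraries, with the siRNA and a control plasmid in place of an OPA1 plasmid, held 33.9, 38.1 and 38.5 CPM. Neither species nor sequence of the plasmid insert is in the labels, and whether transcripts of the plasmid add to the counts of mouse Opa1 was not tested.

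V465F was accompanied by a wide but mostly shallow difference in the transcriptome. Of the 13074 genes tested, 4988 (38.2%) were called, 2367 higher (18.1%) and 2621 lower (20%). The libraries of the groups did not overlap in 6576 genes (50.3%), of which 24.6% of all tested were higher and 25.7% lower with V465F. Rises were smaller than falls: the median size of a called rise was 0.34 on the log2 scale and that of a called fall was 0.47. At 1.5-fold or more, 192 genes rose (1.47%) and 920 fell (7.04%), and at 2-fold or more 72 rose (0.551%) and 271 fell (2.07%). The median log2 fold change of all tested genes was -0.02 and the median standard error 0.107, so that the 95% interval of a typical gene reached 0.222 on each side.

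**Figure D1:**
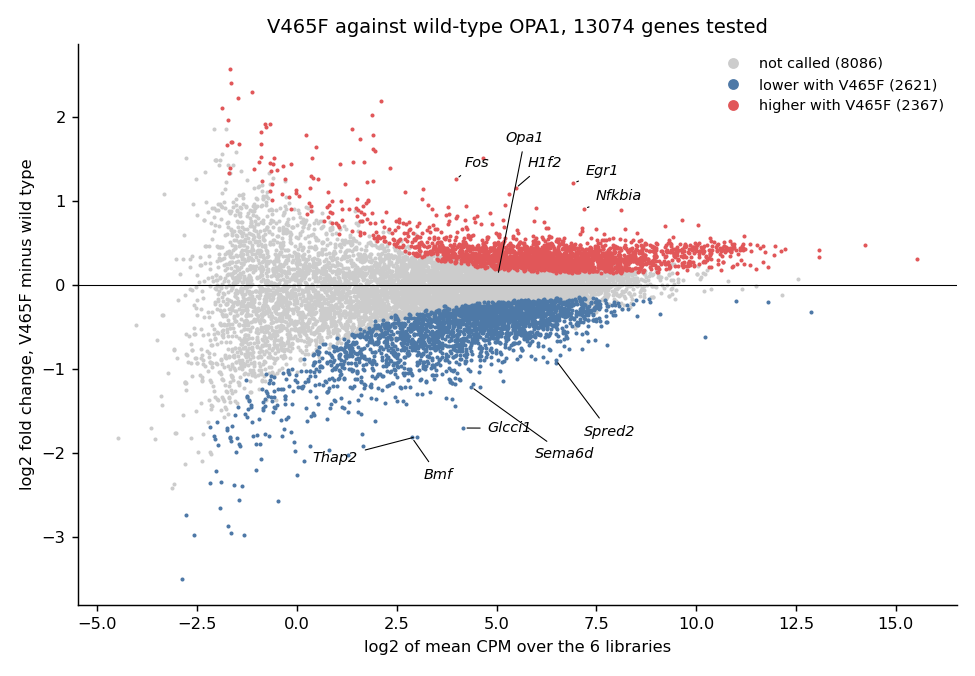
Log2 fold change of V465F over wild type (vertical axis) against log2 of the mean CPM over the 6 libraries (horizontal axis), 1 point for each of the 13074 genes tested, with called rises in red (2367), called falls in blue (2621) and the remaining 8086 in grey. Falls reach further from 0 than rises among genes of middle level, and Opa1 lies among the genes not called.

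The direction of a call followed the length and level of the gene. In the quartile of genes with the shortest transcripts 34.2% rose and 4.62% fell, and in that with the longest 8.12% rose and 32.3% fell. By mean level, 3.18% rose and 11.9% fell in the lowest quartile, against 40.8% and 14.5% in the highest. The median log2 fold change in these quartiles, once corrected for length and GC content, was -0.13 and 0.18, against 0.05 over all genes. After correction for length and GC content 3276 genes were higher (25.1%) and 1817 lower (13.9%), so that 64.3% of calls were rises in place of 47.5%, and 3639 genes were called in the same direction in each fit and 0 in opposite directions. With limma on the deposited FPKM, which changes test, transform and scaling together, 972 were higher and 4297 lower (18.4% rises), and the median of all genes was -0.11. With edgeR under DESeq2 size factors or upper-quartile scaling 51.1% and 47.5% of calls were rises. Levels below are relative to TMM scaling unless another is named. Without the libraries that stood apart the counts were 2879 and 3049.

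**Figure D2:**
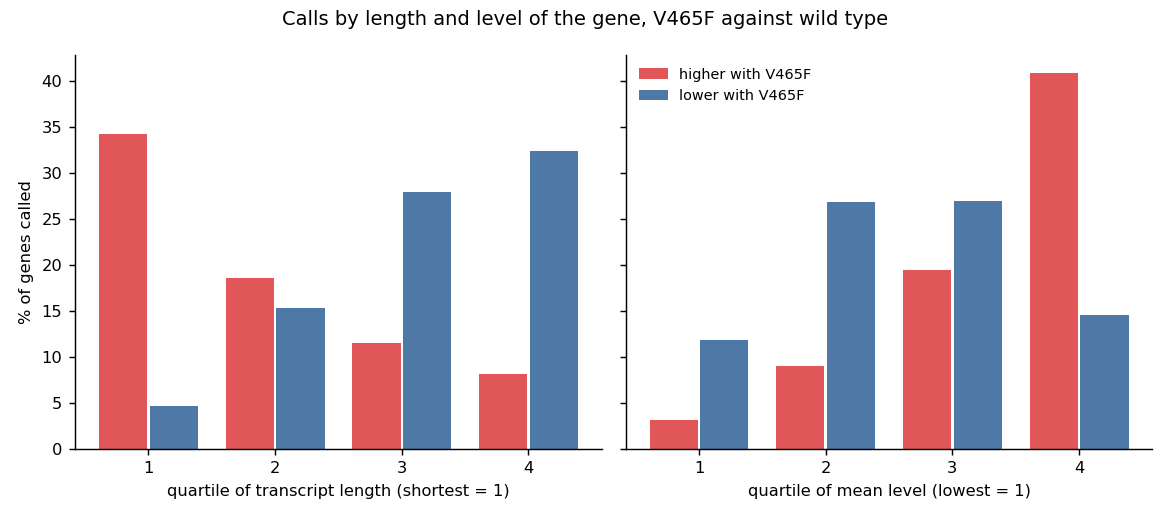
Share of genes called higher (red) or lower (blue) with V465F, as a percent of the genes in each quartile by transcript length (left, shortest to longest) and by mean level in CPM (right, lowest to highest). Along the length quartiles the share called higher goes from 34.2% to 8.12% and the share called lower from 4.62% to 32.3%.

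Immediate early genes, which are transcribed within minutes of a growth, calcium or stress signal and need no new protein, led the rises of genes above 5 CPM, with Fos and Egr1 first. Fos (Entrez gene 14281), a subunit of the AP-1 transcription factor, was at 9.13, 9.82 and 9.05 CPM with wild type and at 16.6, 23.9 and 26.8 CPM with V465F. All V465F libraries lay above all wild-type libraries, and V465F replicate 1 was the lowest of its group. The log2 fold change was 1.26 ± 0.135 (edgeR adjusted p = 9.36e-07), or 2.40-fold. Egr1 (Entrez gene 13653), a zinc finger transcription factor induced through serum response factor, was at 71.1, 72.6 and 75.9 CPM against 149, 168 and 193 CPM, again with no overlap. It rose by 1.22 ± 0.0800 (edgeR adjusted p = 4.8e-09). In the knockdown libraries Egr1 was lower than in control by a called log2 fold change of -0.33 (edgeR adjusted p = 0.00318). Fos was higher there than in control, by 0.56 (edgeR adjusted p = 0.00577).

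AP-1 genes as a list went upward. Of 11 tested AP-1 genes 7 rose and 0 fell, with a median log2 fold change of 0.37 against -0.02 over all genes. In the knockdown against control 6 of the list were called higher and 1 lower, with a median of 0.38. Junb, which overlaps a gene on the opposite strand, was at 29.0, 26.1 and 28.5 CPM with wild type and 37.4, 45.3 and 52.2 CPM with V465F, a rise of 0.69 (edgeR adjusted p = 9.96e-05). Fosb rose by 0.67, from 8.71 ± 0.735 to 13.9 ± 0.745 CPM, and the stress-induced small MAF gene Maff by 0.48, from 98.7 ± 9.82 to 138 ± 5.16 CPM (edgeR adjusted p = 0.000533 and 9.71e-05). Jun, Atf3 and Mafk were the other members that rose, by 0.37, 0.63 and 0.26. Jund, at 0.07, and Fosl2, at -0.04, were not called (edgeR adjusted p = 0.615 and 0.719). After the correction Mafk was at 0.49 and Jund was called, at 0.21 (edgeR adjusted p = 0.0232). On the FPKM scale the AP-1 list had 6 higher and 2 lower.

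The list of EGR and serum response factor genes had 12 of 27 members higher and 2 lower, with a median of 0.40 (18 higher and 1 lower after the correction, median 0.35). In the knockdown against control 13 were called higher and 3 lower, with a median of 0.28. Id1, an inhibitor of basic helix-loop-helix factors, rose from 16.6 ± 1.58 to 29.2 ± 4.07 CPM, and Gadd45b, a stress gene that acts on MAP kinase signalling, from 26.5 ± 1.68 to 45.4 ± 5.38 CPM (edgeR adjusted p = 2.36e-05 and 1.46e-05). Klf6, a zinc finger factor, stood at 258, 235 and 253 CPM with wild type and 348, 330.1 and 345 CPM with V465F (log2 fold change 0.45, edgeR adjusted p = 1.12e-05). The members that fell were Nr4a2, an orphan nuclear receptor gene, by 0.42, and the small GTPase gene Rhob by 0.31 (edgeR adjusted p = 0.0136 and 0.00468). Nr4a2 was not called after the correction (edgeR adjusted p = 0.0697). Its relative Nr4a1 rose by 0.53. Gadd45g, a relative of Gadd45b and also a member of the list, rose by 0.93. Outside the lists, the small GTPase gene Rhov rose by 0.91 and the circadian repressor gene Ciart by 0.80. Gadd45g, Rhov and Ciart were each among the 15 largest rises of genes above 5 CPM. They were also called higher in the knockdown against control, by 0.71, 0.96 and 0.79, as were Id1 and Gadd45b, by 0.62 and 0.49. For none of these genes was the difference between the V465F and knockdown effects called. Ciart overlaps a gene on the opposite strand.

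**Figure D3:**
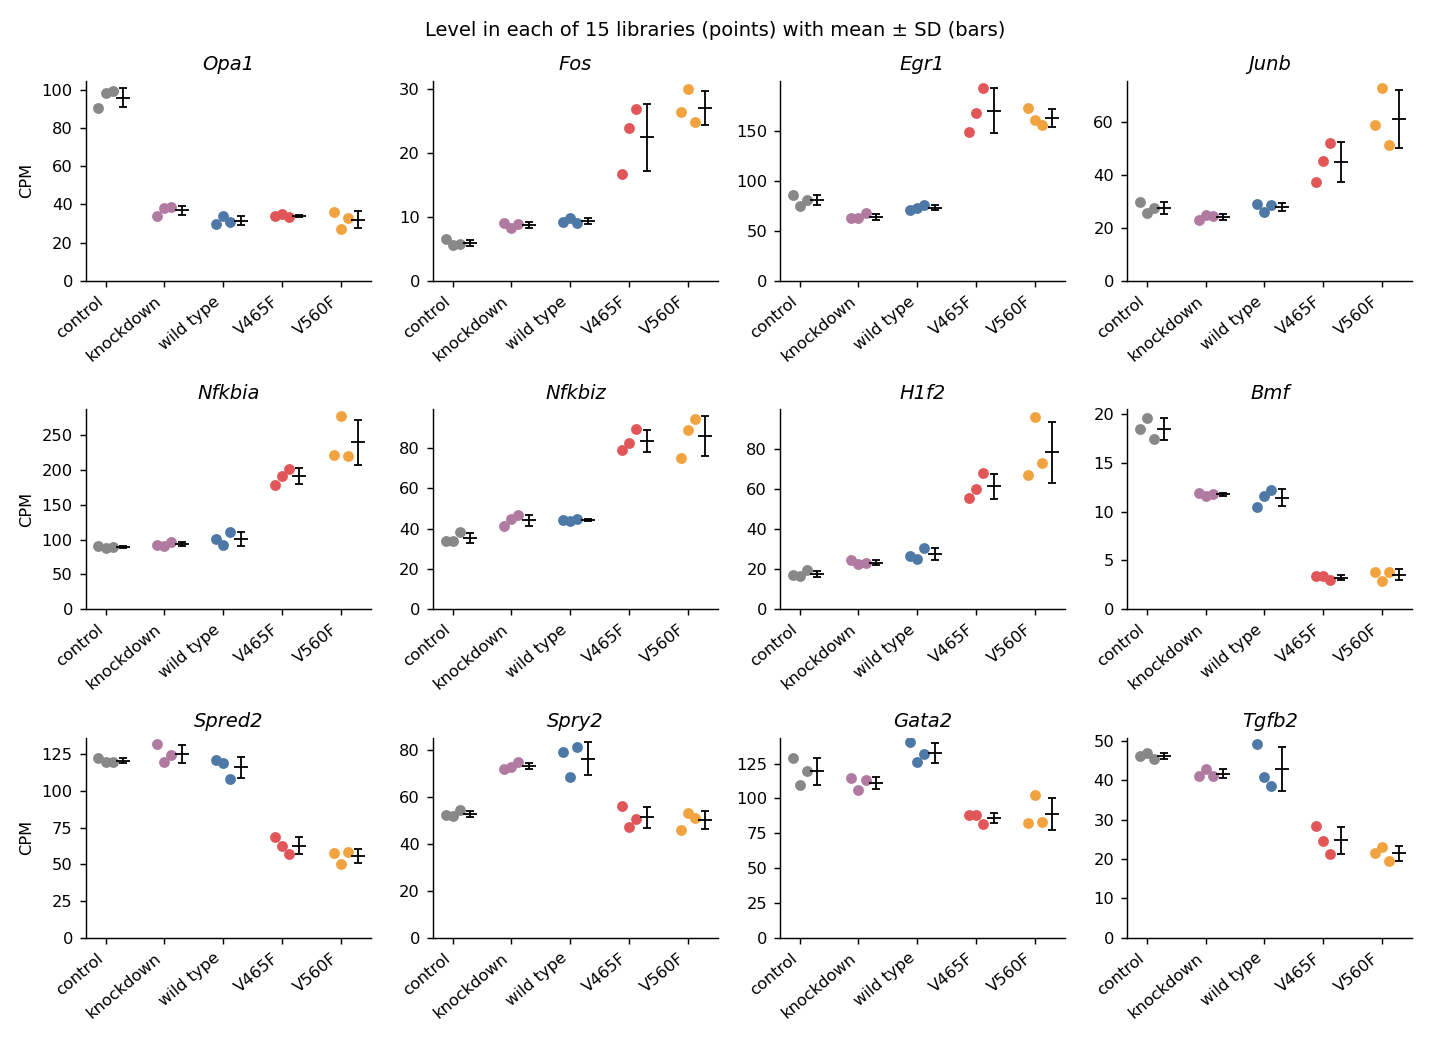
Level in CPM (vertical axis, from 0) of 12 genes in each of the 15 libraries (points, by group along the horizontal axis), with the mean and SD of each group of 3 beside the points. With V465F, Fos, Egr1, Junb, Nfkbia, Nfkbiz and H1f2 lie above every wild-type library and Bmf, Spred2, Spry2, Gata2 and Tgfb2 lie below every wild-type library, while Opa1 overlaps.

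NF-kB is held in the cytosol by inhibitors of the IkB family, and its own targets include the genes of these inhibitors, which makes them a common readout of the pathway. Nfkbia (Entrez gene 18035), which encodes IkB-alpha, was at 101, 91.7 and 112 CPM with wild type and 179, 192 and 202 CPM with V465F. The atypical nuclear IkB gene Nfkbiz was at 44.4, 43.7 and 44.9 CPM against 78.8, 82.4 and 89.5 CPM. In each gene the lowest V465F library lay well above the highest wild-type library. The rises were 0.91 ± 0.0828 and 0.92 ± 0.0808 (edgeR adjusted p = 1.62e-07 and 1.1e-07). Irf1, an interferon regulatory factor gene that NF-kB induces and that overlaps a gene on the opposite strand, rose from 25 ± 0.834 to 38.6 ± 2.46 CPM, a log2 fold change of 0.63 (edgeR adjusted p = 3.26e-06). The chemokine genes Cxcl1 and Cxcl10, of low level, rose by 1.00 and 0.65, from 2.27 to 4.56 and from 5.40 to 8.54 CPM (edgeR adjusted p = 0.00275 and 0.00408).

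The NF-kB list as a whole went both ways, with 8 of 22 members higher and 5 lower and a median of 0.07. The share that fell was near the 20% of all genes tested. On the FPKM scale the median was -0.05, and after the correction it was 0.21 with 10 higher and 3 lower. Among the members that fell were the subunit genes Nfkb1, from 11.8 ± 1.05 to 7.62 ± 0.856 CPM, and Rela, from 13.7 ± 0.956 to 10.8 ± 1.04 CPM (edgeR adjusted p = 0.00138 and 0.0358). The corrected call of Rela was lost (edgeR adjusted p = 0.104). The subunit gene Rel rose by 0.35 and the mitochondrial superoxide dismutase gene Sod2 by 0.31. Nfkbie, which encodes IkB-epsilon, was low throughout and fell from 1.56 ± 0.132 to 0.392 ± 0.148 CPM (edgeR adjusted p = 0.000349). Tnfaip3, which encodes the feedback inhibitor A20, was at 10.1, 6.66 and 9.58 CPM against 11, 11.7 and 9.79 CPM and was not called (log2 fold change 0.31, edgeR adjusted p = 0.102), but was after the correction (0.47, edgeR adjusted p = 0.00997). Il6, a cytokine gene, rose by 0.48 and lost the call after the correction (edgeR adjusted p = 0.0328 and 0.127).

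The sequences before the start of these genes are shown because they are where NF-kB, serum response factor and AP-1 are known to act. RefSeq tables on the mouse build GRCm38.p6, a build older than that of the counts, were searched with 1 chromosome left out. Windows of 250 bases before the start were read for 23 of the 27 genes that rose in the AP-1, immediate early and NF-kB lists. There were 31 windows in all, since some genes have several starts. Egr1 and Nfkbiz were among the genes with no window read, so their letters are not known here. The letters of the NF-kB site were found on either strand in 10 of the 31 windows, in 10 genes, and in 5% of the 32851 windows of all genes searched. The NF-kB list was chosen to hold known NF-kB targets, so these shares are no test of enrichment. Outside that list the matches were at Egr2, Fos and Fosb. Those of the serum response element, the CArG box, were found in 1.47% of all windows searched. Among the 31 windows read they were found only at Egr2, at 2 distinct sites. Of these sites 1 is counted in 3 overlapping windows of that gene. The cAMP response element TGACGTCA was found in 1 gene, Maff, against 1.55%, and the AP-1 letters TGACTCA or TGAGTCA in 2 genes, Cxcl10 and Il6, against 4.46%. At Cxcl10 and Il6 the NF-kB and AP-1 matches lie in the same window without overlap. A match describes letters and is not a bound site. Sites beyond the 250 bases, or with letters that differ from those searched, were not read. A gene without a match, such as Fos for the CArG box, is thus not shown to lack a site. Capitals mark the match in the windows of Nfkbia (chr12:55492648-55492897, minus strand), Cxcl1 (chr5:90890995-90891244, plus strand), Irf1 (chr11:53769764-53770013, plus strand) and Fos (chr12:85473640-85473889, plus strand) for the NF-kB letters, and in that of Egr2 (chr10:67537620-67537869, plus strand) for the CArG box.
Nfkbia: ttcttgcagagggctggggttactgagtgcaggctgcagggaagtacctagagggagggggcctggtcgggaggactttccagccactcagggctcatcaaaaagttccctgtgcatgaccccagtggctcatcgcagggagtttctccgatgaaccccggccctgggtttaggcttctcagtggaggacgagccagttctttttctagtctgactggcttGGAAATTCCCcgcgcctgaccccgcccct
Cxcl1: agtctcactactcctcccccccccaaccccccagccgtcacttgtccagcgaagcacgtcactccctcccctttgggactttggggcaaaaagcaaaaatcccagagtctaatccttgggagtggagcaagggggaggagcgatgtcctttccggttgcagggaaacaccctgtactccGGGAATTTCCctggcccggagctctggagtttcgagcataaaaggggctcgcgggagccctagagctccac
Irf1: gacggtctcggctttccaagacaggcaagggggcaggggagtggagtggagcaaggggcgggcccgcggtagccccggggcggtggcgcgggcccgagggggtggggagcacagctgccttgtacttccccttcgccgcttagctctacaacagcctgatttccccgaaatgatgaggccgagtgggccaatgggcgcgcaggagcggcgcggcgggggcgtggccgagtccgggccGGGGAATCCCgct
Fos: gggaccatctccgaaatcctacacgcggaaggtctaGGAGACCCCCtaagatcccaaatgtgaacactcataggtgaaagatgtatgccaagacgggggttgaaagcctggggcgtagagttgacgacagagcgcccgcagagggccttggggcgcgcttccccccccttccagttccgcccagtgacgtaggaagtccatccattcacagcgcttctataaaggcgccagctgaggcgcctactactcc
Egr2: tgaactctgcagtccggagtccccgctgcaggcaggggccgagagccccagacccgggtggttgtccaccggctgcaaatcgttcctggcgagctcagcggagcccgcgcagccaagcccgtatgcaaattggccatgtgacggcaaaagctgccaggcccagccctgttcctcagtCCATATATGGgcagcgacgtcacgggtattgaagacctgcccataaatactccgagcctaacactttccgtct
The match ended 20 bases before the start in Nfkbia, 62 in Cxcl1, 4 in Irf1, 205 in Fos and 64 in Egr2. Egr2, a relative of Egr1, was at 3.33, 2.62 and 3.35 CPM with wild type and 4.39, 4.19 and 5.12 CPM with V465F (log2 fold change 0.56, edgeR adjusted p = 0.0276).

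Feedback inhibitors of the ERK pathway restrain RAF and ERK after growth factor signals, and several of them are themselves ERK targets. Spred2, which encodes a membrane inhibitor of RAS to RAF signalling, was at 122, 119 and 108 CPM with wild type and 68.6, 62.3 and 57.1 CPM with V465F, with no overlap. It fell by 0.89 (edgeR adjusted p = 8.15e-08; corrected -0.70). Spred1 went from 215 ± 12.6 to 137 ± 15.8 CPM, the JNK and p38 phosphatase gene Dusp16, which overlaps an opposite-strand gene, from 57.2 ± 6.61 to 35.6 ± 3.35 CPM, and the Sprouty gene Spry2 from 76.1 ± 6.97 to 51.2 ± 4.48 CPM. Their log2 fold changes were -0.65, -0.68 and -0.57 (edgeR adjusted p = 1.93e-06, 7.25e-06 and 1.2e-05). Of 17 members of the list 4 fell and 2 rose, shares near the 20% and 18.1% of all genes tested, and the median of -0.11 was -0.01 after the correction, with 4 lower and 3 higher. The members that rose were Dusp2, by 0.63, and Dusp8, by 0.26 (corrected 0.49). Dusp6, the cytosolic ERK phosphatase gene often read as a mark of ERK activity, was at -0.11 and was not called (edgeR adjusted p = 0.192).

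The largest falls of genes above 5 CPM were led by Bmf (Entrez gene 171543), which encodes a BH3-only protein that binds BCL2 proteins and promotes cell death. It was at 10.5, 11.6 and 12.2 CPM with wild type and 3.38, 3.38 and 2.98 CPM with V465F, and was at 18.5 ± 1.11 CPM in control. The V465F libraries lay close together and well below every wild-type library. The fall was 3.51-fold (log2 fold change -1.81 ± 0.131, edgeR adjusted p = 1.64e-08). Thap2, a THAP-domain gene, fell 3.49-fold to 3.56 ± 0.677 CPM, and Glcci1, a gene named for its induction by glucocorticoids, 3.25-fold to 8.47 ± 2.30 CPM (edgeR adjusted p = 3.01e-08 and 1.22e-07). Ppp1r10, a nuclear regulator of protein phosphatase 1, fell 2.72-fold, Hcn4, a channel for the hyperpolarization-activated current, 2.45-fold, and the zinc finger gene Zfp46 2.45-fold. Glcci1 overlaps genes on each strand and Ppp1r10 a gene on its own strand. The other members of the 15 largest falls were Tmem104, Fbxl7, Fam222b, Nynrin, Morc2a, Manea, Prima1, Tlnrd1 and Trim62, at 2.31-fold to 2.66-fold. Each of the 15 was also called lower after the correction.

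The remaining large rises belonged to genes of several kinds. Ccnl1, a cyclin of the splicing machinery that is also an immediate early gene, rose from 195 ± 11.7 to 364 ± 33.9 CPM, and Mat2a, which makes the methyl donor S-adenosylmethionine, from 589 ± 47.9 to 1010.0 ± 116 CPM (edgeR adjusted p = 8.1e-07 and 3.81e-06). Each overlaps a gene on the opposite strand. P2rx3, an ATP-gated channel gene of sensory neurons that also overlaps an opposite-strand gene, was at 11.2, 9.86 and 7.71 CPM with wild type and 20.1, 15.7 and 15.3 CPM with V465F (log2 fold change 0.83 ± 0.179, edgeR adjusted p = 0.00105). In V560F libraries P2rx3 was at 9.69 ± 2.76 CPM, and V465F against V560F was not called for it (log2 difference 0.81 ± 0.185, edgeR adjusted p = 0.107). Gdap10, which overlaps another gene on its own strand, rose by 0.77, and lost its call without wild-type replicate 3.

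Genes of cell death did not move as a block. The pro-apoptotic BCL2 list had 1 of 11 higher and 3 lower, and its median of 0.15 was -0.02 on the FPKM scale and 0.03 after the correction, with 3 higher and 4 lower. Of all genes tested 18.1% rose and 20% fell. Beside Bmf, Bid, which links death receptors to mitochondria, fell from 17.7 ± 2.32 to 12.7 ± 0.659 CPM, while Bbc3, the p53 target known as PUMA, rose from 19.1 ± 0.904 to 25.9 ± 1.41 CPM (edgeR adjusted p = 0.00208 and 0.00167). Bcl2l13 fell by 0.17, but was at 0.02 after the correction (edgeR adjusted p = 0.033 and 0.839). Bax was at 31.0, 24.8 and 27.3 CPM against 31.3, 30.5 and 34.2 CPM and was not called (edgeR adjusted p = 0.11). Of 4 pro-survival genes, with a median of 0.06 that was 0.26 after the correction and -0.09 on the FPKM scale, Bcl2 fell by 0.52 and Bcl2l2 rose by 0.19 (edgeR adjusted p = 0.00542 and 0.0309), and the call of Bcl2l2 was lost when any single library other than wild-type replicate 1 was left out. After the correction Bbc3, Bcl2 and Bcl2l2 were at 0.66, -0.35 and 0.39.

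Among cytochrome c, apoptosome and caspase genes 3 of 29 rose and 4 fell, shares under the 18.1% and 20% of all genes tested. Their median was -0.07 (6 higher and 3 lower after the correction, median -0.01). Cycs, which encodes cytochrome c itself, rose from 46.8 ± 0.951 to 56.5 ± 2.38 CPM, the survivin gene Birc5 from 62.7 ± 6.35 to 82.7 ± 3.97 CPM, and Casp2 from 48.3 ± 2.26 to 59.2 ± 4.97 CPM. Their log2 fold changes were 0.27, 0.40 and 0.29 (edgeR adjusted p = 0.00346, 0.000515 and 0.00523). The death receptor adaptor gene Tradd fell by 0.69 (edgeR adjusted p = 0.00839), a call that was lost without V465F replicate 1. Of 24 p53 and growth arrest genes, with a median of -0.03 that was 0.06 after the correction, 5 rose and 3 fell. The share that rose was near the 18.1% of all genes tested, and the share that fell was under the 20%. Among those that rose was Gadd45a, by 0.56, and among those that fell Tigar, a regulator of glycolytic flux, by 0.92. The p53 gene Trp53 and its target Cdkn1a, which encodes p21, were at -0.05 and 0.16 and were not called (edgeR adjusted p = 0.545 and 0.193).

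Genes that shape mitochondria alongside OPA1 also went both ways. Of 41 genes of fusion, fission and cristae 15 rose and 9 fell, with a median of 0.13 that was -0.04 on the FPKM scale, where 7 were higher and 12 lower. By edgeR the share that fell was near the 20% of all genes tested, and the share that rose was above the 18.1%. After the correction 18 were higher and 5 lower. Cristae genes were among those that rose: Chchd10 went from 289.7 ± 34.0 to 447 ± 13.7 CPM, the MICOS subunit gene Chchd3 from 173 ± 18.4 to 233 ± 7.36 CPM, and Chchd6 by 0.45. The MICOS core gene Immt rose by 0.17 (edgeR adjusted p = 0.0338). Dnajc11, a partner of the MICOS complex, was the largest fall of the list, from 35.2, 33.4 and 32.4 CPM to 21.8, 18.9 and 17.6 CPM, a log2 fold change of -0.79 ± 0.0855 (edgeR adjusted p = 1.03e-06). The outer membrane fusion gene Mfn2, which overlaps an opposite-strand gene, fell by 0.36, corrected -0.18, and the fission receptor genes Mief1 and Mief2 by 0.43 and 0.72 (edgeR adjusted p = 0.000537, 0.000395 and 0.00249). Mfn1 was at 0.07, the fission GTPase gene Dnm1l at -0.03, and the OPA1-cutting protease genes Yme1l1 and Oma1 at 0.01 and -0.54, none of them called (edgeR adjusted p = 0.442, 0.747, 0.903 and 0.153). After the correction Immt and Mief1 were at 0.31 and -0.25, and Mfn1 and Yme1l1 were called higher, at 0.21 and 0.17 (edgeR adjusted p = 0.0144 and 0.0109). Afg3l2, a subunit of the matrix protease of the inner membrane, fell by 0.19 and lost the call after the correction (edgeR adjusted p = 0.0336 and 0.673), and its partner Spg7 rose by 0.31.

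Nuclear genes of the respiratory chain rose. Among complex I subunits 32 of 37 rose and 0 fell, and among subunits of complexes II to V 34 of 40 rose and 0 fell, with a median of 0.36 in each. These transcripts are short, and after the correction 16 and 19 were called higher and the medians were 0.13 in each. Over all genes the corrected median was 0.05, and over the quartile of genes of highest level it was 0.18. The correction does not cover level, and the part of level in these rises was not tested. Ndufa10 was at 106, 93.8 and 109 CPM with wild type and 135, 129 and 133 CPM with V465F, and the ATP synthase subunit gene Atp5b at 1962, 1816 and 2085 CPM against 2631, 2622 and 2753 CPM. They rose by 0.37 and 0.45 (edgeR adjusted p = 0.00047 and 4.3e-05; corrected 0.28 and 0.38). Atp5g2 rose by 0.48 but by 0.16 after the correction, and Cox8a, a cytochrome c oxidase subunit gene, by 0.54 and 0.25.

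Genes of the mitochondrial DNA, which encode core subunits of the same complexes, included more falls than rises. Of 13 mitochondrially encoded genes 4 fell and 1 rose, with a median of -0.20, and after the correction 9 were lower with a median of -0.45. CYTB, the complex III subunit, was at 8342, 8295 and 8614 CPM with wild type and 7125, 6698 and 6437 CPM with V465F, with no overlap (log2 fold change -0.32 ± 0.0670, edgeR adjusted p = 0.000873). ND6 and ND4, complex I subunits, fell by 0.38 and 0.20 (edgeR adjusted p = 0.00802 and 0.0338). The fall of ND6, which is coded on the strand opposite to most of the genome, was -0.67 after the correction and lost its call without V465F replicate 3. COX1, the catalytic subunit of cytochrome c oxidase, rose by 0.32 and by 0.18 after the correction (edgeR adjusted p = 0.00108), and was not called by limma on FPKM, where 0 were higher and 6 lower. CYTB and ND4 were at -0.52 and -0.31 after the correction. The summed share of raw counts from the mitochondrial genome was 6.82 to 6.89% with wild type and 6.81 to 6.95% with V465F (exact permutation p = 0.9). This share is of unscaled library totals, so it is not on the CPM scale of the genes above. The TMM factors were 1.007 to 1.069 with wild type and 0.907 to 0.930 with V465F. Several of these genes overlap or abut another, so reads between neighbours can be split by the counting.

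Mitochondrial ribosomal protein genes rose in 44 of 78 cases and fell in 0, with a median of 0.26 (31 higher and 1 lower after the correction, median 0.16). Mrps10 went from 55.0 ± 3.27 to 71.6 ± 3.08 CPM and Mrpl35 from 52.4 ± 3.70 to 73.7 ± 2.78 CPM (edgeR adjusted p = 0.00016 and 0.000222). Of 32 genes of protein import 14 rose and 2 fell (11 higher and 5 lower after the correction, median 0.13). Tomm20, a receptor subunit of the outer membrane translocase, rose by 0.41, and Hspa9, the matrix HSP70 that pulls proteins in, by 0.31 (edgeR adjusted p = 0.000228 and 0.00106). Tomm70a, the other receptor gene, fell from 126, 126 and 122 CPM to 101, 84.3 and 82.6 CPM, a log2 fold change of -0.48 (edgeR adjusted p = 1.67e-05).

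Lysosomal genes rose in 19 of 37 cases and none fell (median 0.19, edgeR; 10 higher and 2 lower on the FPKM scale). The sialidase gene Neu1 went from 49.2 ± 3.55 to 71.1 ± 1.12 CPM, the membrane protein gene Lamp1 from 789 ± 39.5 to 1030.0 ± 32.4 CPM and the cathepsin gene Ctsb from 605 ± 47.8 to 787 ± 36.0 CPM (edgeR adjusted p = 5.55e-05, 5.84e-05 and 0.000256). Among 36 mitophagy and autophagy genes 11 rose and 5 fell, with a median of 0.06 that was 0.12 after the correction and -0.09 on the FPKM scale, where 2 were higher and 14 lower. The list's median level, 73.3 CPM, lies in the quartile of highest level. Of all genes there 40.8% rose, a larger share, and 14.5% fell, a share near that of the list. The cargo receptor gene Sqstm1 and the ATG8 family gene Gabarap rose by 0.36 and 0.45, corrected 0.54 and 0.25 (edgeR adjusted p = 0.00025 and 0.000386). The kinase gene Ulk1, which starts autophagosome formation, fell from 56.5, 61.0 and 59.2 CPM to 39.2, 42.9 and 40.2 CPM, and its partner Atg13 from 26.9, 25.7 and 25.2 CPM to 17.5, 18.0 and 16.1 CPM. Their log2 fold changes were -0.53 (corrected -0.31) and -0.59 (edgeR adjusted p = 2.57e-05 and 1.97e-05). Pink1, the mitophagy kinase gene, was at 0.09 and was not called (edgeR adjusted p = 0.5).

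**Figure D4:**
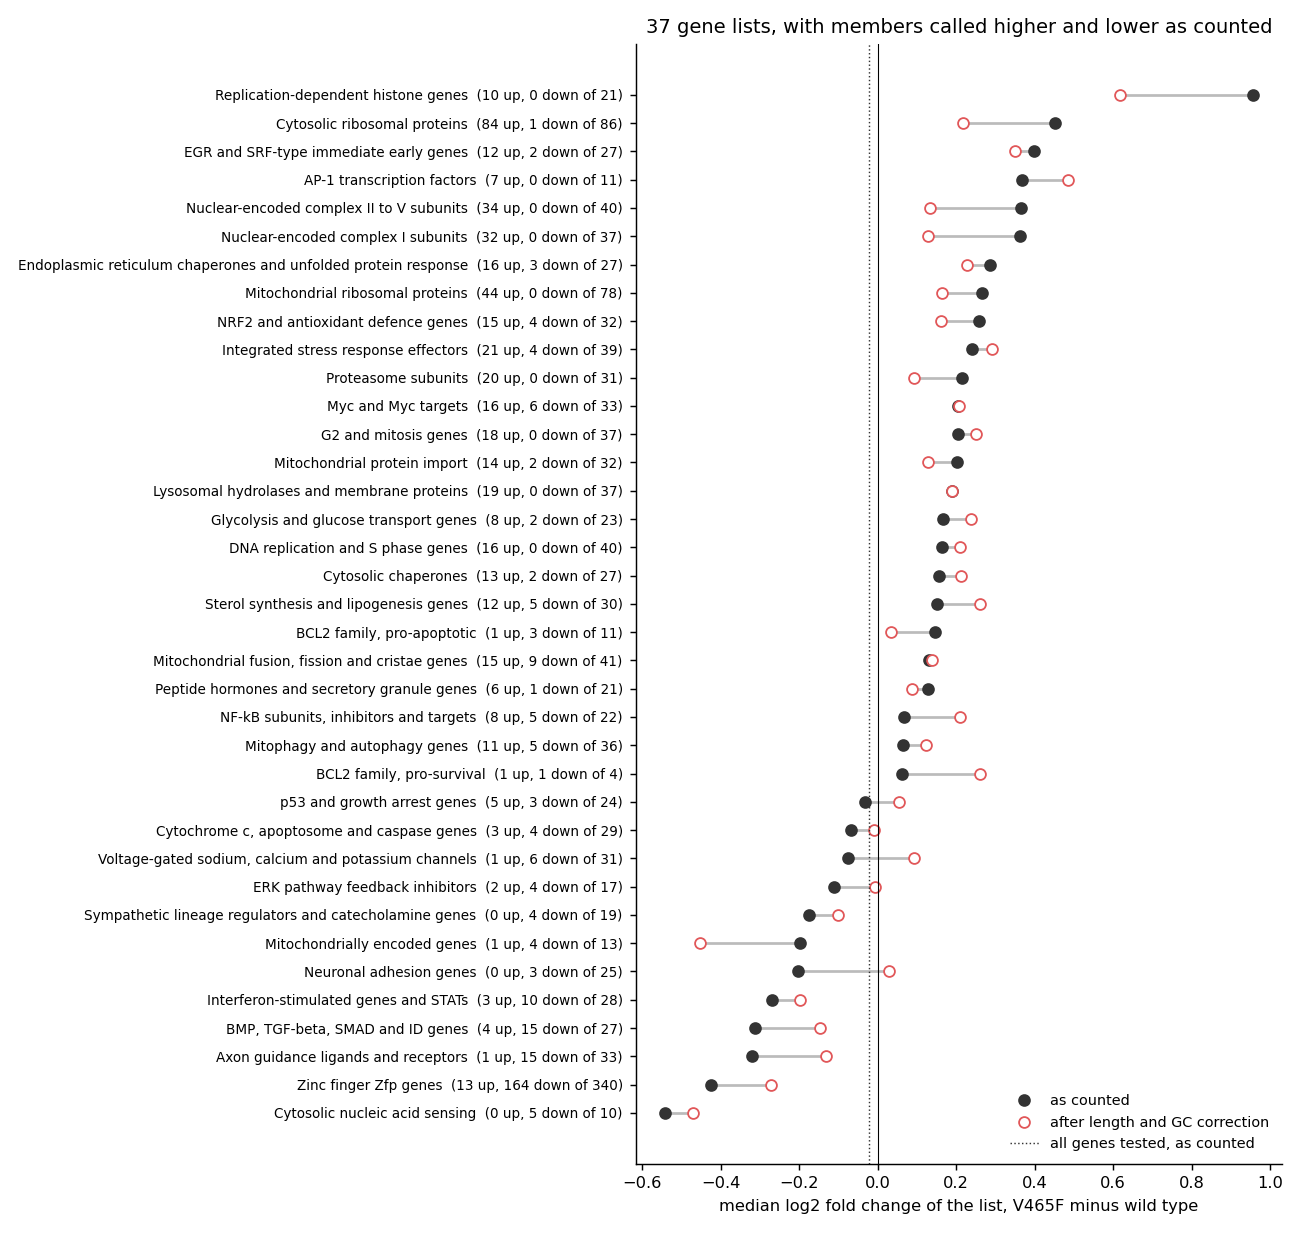
Median log2 fold change of V465F over wild type (horizontal axis) for 37 gene lists, as counted (filled points) and after correction for transcript length and GC content (open points), with the members called higher and lower as counted beside each name. Histone, cytosolic ribosomal, immediate early, AP-1 and respiratory chain lists lie farthest to the right and nucleic acid sensing, Zfp, axon guidance and BMP lists farthest to the left of the median of all genes at -0.02 (dotted).

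Where edgeR called no member in a direction, the unadjusted count and the other tools read as follows. At an unadjusted p under 0.05, members lower with V465F numbered 0 in the AP-1 list, 0 in complex I, 0 in complexes II to V, 0 among mitochondrial ribosomal and 0 among lysosomal genes, 0 among proteasome, 2 among replication and 1 among G2 and mitosis genes, and 0 among histones. DESeq2 called 0 in each of these, and limma on FPKM called 2, 1, 0, 2, 2, 3, 5, 5 and 0. Members higher with V465F at an unadjusted p numbered 0 in nucleic acid sensing, 0 in the sympathetic list and 1 in neuronal adhesion, with 0 called by DESeq2 and 0 by limma in each.

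Stress genes that follow phosphorylation of eIF2-alpha mostly rose. In the integrated stress response list 21 of 39 rose and 4 fell, with a median of 0.24, and 13 were higher and 9 lower on the FPKM scale. Ddit3, which encodes the stress factor CHOP and overlaps genes on each strand, was at 230.2, 195 and 260.1 CPM with wild type and 354, 359 and 374 CPM with V465F (log2 fold change 0.67, edgeR adjusted p = 2.28e-05). Chac1, a glutathione-degrading CHOP and ATF4 target, was at 24.5, 26.3 and 27.9 CPM against 35.5, 43.5 and 41.4 CPM (log2 fold change 0.61, edgeR adjusted p = 7.31e-05). The factor gene Atf4 rose by 0.35, and its targets Asns and Phgdh by 0.30 and 0.40. Dele1, which carries mitochondrial stress to the cytosol after cutting by OMA1, rose by 0.31, and Eif2ak1, the kinase HRI on which it acts, fell by 0.33 (edgeR adjusted p = 0.00046 and 0.0206). The kinase gene Eif2ak3, known as PERK, fell from 104, 94.2 and 87.3 CPM to 67.8, 60.4 and 61.0 CPM, a log2 fold change of -0.59 (edgeR adjusted p = 7.11e-06), and the amino acid transporter gene Slc7a1 by 0.42 (corrected -0.24). An opposite-strand gene overlaps Dele1 and Eif2ak1, and genes on each strand overlap Eif2ak3. Fgf21 and Gdf15, secreted signals of mitochondrial stress, were at 0.93 and 0.24 and were not called (edgeR adjusted p = 0.268 and 0.117), though Gdf15 was after the correction (edgeR adjusted p = 0.0453).

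Endoplasmic reticulum chaperone genes rose in 16 of 27 cases and 3 fell (15 higher and 1 lower after the correction). The lumenal chaperone gene Hspa5, or BiP, went from 1496 ± 137 to 2157 ± 84.7 CPM, Calr from 1141 ± 88.3 to 1633 ± 38 CPM and Hsp90b1 from 1919 ± 139 to 2693 ± 48.9 CPM (edgeR adjusted p = 2.27e-05, 8.16e-06 and 1.36e-05). The factor gene Xbp1 fell by 0.39 (edgeR adjusted p = 0.00122). Of 27 cytosolic chaperone genes 13 rose, among them the chaperonin subunit gene Cct2 by 0.45 and Hspa8 by 0.43, and 2 fell, among them the co-chaperone gene Bag3 by 0.35 (median 0.16, and -0.01 on the FPKM scale; 16 higher and 3 lower after the correction). Proteasome subunit genes rose in 20 of 31 cases and none fell, and after the correction 12 were higher and 3 lower, the median going from 0.22 to 0.09. The corrected median of the quartile of genes of highest level was 0.18. Psmd8 rose by 0.50, and Psmb3 by 0.35, which was 0.07 and not called after the correction (edgeR adjusted p = 0.392). In the NRF2 and antioxidant list, with a median of 0.26 that was 0.16 after the correction, 15 of 32 rose, led by the ferritin gene Ftl1 at 0.59 and the peroxidase gene Gpx1 at 0.57, and 4 fell, among them the thioredoxin reductase gene Txnrd1 by 0.37 (corrected -0.24) and the factor gene Nfe2l2 by 0.25 (edgeR adjusted p = 1.6e-05, 6.61e-05, 8.45e-05 and 0.00986).

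Cytosolic ribosomal protein genes rose in 84 of 86 cases, and 1 fell (edgeR), with a median of 0.45 that was 0.22 with 66 called higher after the correction. Rplp0 was at 2384, 2335 and 2690.0 CPM with wild type and 3292, 3355 and 3673 CPM with V465F, a rise of 0.48 (edgeR adjusted p = 0.000136). Rpl4 and Rpl15 rose by 0.47 and 0.48. These genes have many processed pseudogenes with which the counting could split reads. Among 33 Myc genes and targets 16 rose and 6 fell, the latter a share near the 20% of all genes tested. The nucleotide kinase gene Nme2 rose by 0.53 and the nucleolar gene Gnl3 by 0.44, while Mxd1, an antagonist of Myc, fell by 0.65 (edgeR adjusted p = 8.72e-05, 0.00014 and 2.57e-05). On the FPKM scale the Myc list had 8 higher and 9 lower. Myc itself was at 0.08 (edgeR adjusted p = 0.419).

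Genes of the cell cycle rose and none fell by the edgeR test: 16 of 40 in DNA replication and 18 of 37 in G2 and mitosis. The replication median was 0.16, and -0.01 on the FPKM scale with 9 higher and 5 lower. Top2a, the topoisomerase of dividing cells, was at 1052, 1040.0 and 1151 CPM with wild type and 1484, 1544 and 1631 CPM with V465F, and the cyclin gene Ccnb2 at 42.7, 38.7 and 46.5 CPM against 58.5, 62.6 and 65.5 CPM. They rose by 0.52 and 0.55 (edgeR adjusted p = 6.96e-06 and 3.55e-05). The replication genes Pold2 and Gins2 rose by 0.44 and 0.59 (edgeR adjusted p = 2.67e-05 and 6.2e-05).

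Replication-dependent histone genes, whose transcripts end in a stem loop in place of a poly(A) tail, rose in 10 of 21 tested cases and none fell (median 0.96). Most were of low level, with a median gene at 0.457 CPM, and they are near-identical copies among which the counting could split reads, so single members are uncertain. H1f2, the best measured, was at 26.7, 25.3 and 30.8 CPM with wild type and 55.8, 60.2 and 68.2 CPM with V465F (log2 fold change 1.15 ± 0.111, edgeR adjusted p = 2.81e-07). H4c9 went from 1.83 ± 0.271 to 5.65 ± 0.814 CPM (edgeR adjusted p = 0.000104), and H2bu2, a histone gene outside the list, from 25.1 ± 5.95 to 48.8 ± 5.96 CPM (edgeR adjusted p = 6.04e-05), at 0.96 on the log2 scale and 0.63 after the correction. After the correction 7 of the histone list, with a median of 0.62, were higher and 1 lower.

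Innate immune genes other than the NF-kB targets above included more falls than rises. Of 10 genes of cytosolic nucleic acid sensing 5 fell and none rose by the edgeR test, with a median of -0.54. Adar, which edits double-stranded RNA and so restrains its sensing, was at 33.8, 37.1 and 29.2 CPM with wild type and 16.8, 19.3 and 17.9 CPM with V465F. It fell by 0.89 (edgeR adjusted p = 1.04e-06) and overlaps a gene on the opposite strand. The RNA sensor gene Ddx58, or RIG-I, fell from 19.2 ± 1.23 to 12.2 ± 1.51 CPM, the kinase gene Eif2ak2, or PKR, from 19.9 ± 1.54 to 14.9 ± 0.170 CPM and the factor gene Irf3 from 7.39 ± 0.577 to 4.77 ± 0.689 CPM (edgeR adjusted p = 5.04e-05, 0.00161 and 0.00485). Eif2ak2 was at -0.41, and at -0.25 after the correction. Sting1 and Mavs, the adaptors of DNA and RNA sensing, were at 0.00 and 0.05 and were not called (edgeR adjusted p = 0.994 and 0.791).

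Among 28 interferon-stimulated genes and STATs 10 fell and 3 rose, with a median of -0.27. Cmpk2, a mitochondrial nucleotide kinase gene induced by interferon, fell from 8.97 ± 0.523 to 5.59 ± 0.329 CPM and the ubiquitin ligase gene Trim25 from 60.2 ± 5.14 to 45.6 ± 1.80 CPM (edgeR adjusted p = 0.000541 and 0.000396; corrected -0.61 and -0.22). The members that rose were the antigen presentation genes B2m, by 0.45 (corrected 0.17), H2-K1, by 0.34, and H2-D1, by 0.27 (edgeR adjusted p = 0.000183, 0.00268 and 0.0169). Isg15 and Ifit1 were at 0.25 and -0.28 and were not called (edgeR adjusted p = 0.275 and 0.58).

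In the list of sympathetic lineage genes 4 of 19 fell, a share near the 20% of all genes tested, and none rose (1 higher and 5 lower after the correction, median -0.10). Gata2 (Entrez gene 14461), a GATA zinc finger factor gene, was at 140.3, 126 and 132 CPM with wild type and 88.0, 88.2 and 81.7 CPM with V465F, with no overlap. It fell by 0.63 (edgeR adjusted p = 6.48e-06). Sox4 fell from 229.5 ± 17.2 to 164 ± 6.46 CPM and Hand2 from 249 ± 15.5 to 184 ± 3.64 CPM (edgeR adjusted p = 7.16e-06 and 5.65e-05). The enzyme genes Th and Dbh were at -0.31 and -0.15 and the monoamine transporter gene Slc18a2 at 0.13, none called (edgeR adjusted p = 0.315, 0.541 and 0.131), though Slc18a2 was after the correction (0.21, edgeR adjusted p = 0.00415). Of 21 secretory granule and peptide hormone genes 6 rose, among them the granin gene Scg2 by 0.27 and the processing enzyme gene Cpe by 0.28, and 1 fell (median 0.13, and -0.03 on the FPKM scale; 9 higher and 0 lower after the correction).

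Axon guidance genes, which are long, fell in 15 of 33 cases and rose in 1 (median -0.32), against 7 lower and 5 higher after the correction (median -0.13). Sema6d, a transmembrane semaphorin gene, was at 30.5, 29.2 and 26.3 CPM with wild type and 15.9, 11.8 and 9.54 CPM with V465F, and Sema6a at 24.0, 23.6 and 20.9 CPM against 11.9, 10.6 and 9.0 CPM. All V465F libraries lay below all wild-type libraries in each gene. They fell by 1.21 and 1.12 (edgeR adjusted p = 2.17e-06 and 6.66e-06; corrected -1.01 and -0.92). The netrin receptor gene Unc5c and the ephrin gene Efna5 fell by 0.83 and 0.61. Sema6d and Unc5c overlap a gene on the opposite strand. Neuronal adhesion genes had 3 of 25 lower, a share under the 20% of all genes tested, and 0 higher. Their median of -0.20 was 0.03 after the correction, with the calls turned to 5 higher and 1 lower. Lrrn3 fell by 0.56, and the calls of Tenm3 and Celsr2, at -0.28 and -0.51, were lost after the correction, at -0.09 and -0.26 (edgeR adjusted p = 0.149 and 0.174). Voltage-gated channel genes had 6 of 31 lower, a share near the 20% of all genes tested, and 1 higher, with a median of -0.07. After the correction the calls were 6 higher and 3 lower and the median 0.09. The potassium channel gene Kcnn3 fell by 0.76 (edgeR adjusted p = 0.00251).

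BMP and TGF-beta ligands act through pairs of receptor kinases and SMAD factors, and ID genes are among their targets. Of 27 tested genes of this pathway 15 fell and 4 rose, with a median of -0.31 (11 lower and 5 higher after the correction, median -0.15). Among ligands, Tgfb2 was at 49.3, 40.9 and 38.6 CPM with wild type and 28.3, 24.7 and 21.3 CPM with V465F, a fall of 0.79, while Tgfb1 rose by 0.37 (edgeR adjusted p = 4.5e-06 and 0.000909). Among receptors, Acvr1b fell from 34.4, 36.4 and 32.4 CPM to 22.2, 17.7 and 17.2 CPM, a log2 fold change of -0.85 (edgeR adjusted p = 1.93e-06), and Bmpr1a and Bmpr2 fell by 0.45 and 0.51 (corrected -0.30 and -0.33). The shared factor gene Smad4 fell from 172, 172 and 168 CPM to 136, 128 and 123 CPM (log2 fold change -0.40, corrected -0.21, edgeR adjusted p = 2.42e-05), and Smad1 by 0.50. The members that rose were the inhibitory Smad7, by 0.35 (corrected 0.54), the target genes Id1 and Id3, by 0.82 and 0.74, and Tgfb1. Tgfb2, Bmpr1a and Smad4 overlap a gene on the opposite strand.

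Metabolic lists went both ways. Of 30 sterol and lipogenesis genes 12 rose and 5 fell, and the median of 0.15 was -0.02 on the FPKM scale and 0.26 after the correction, with 19 higher and 2 lower. The list's median level was 456.5 CPM. In the quartile of genes of highest level 40.8% rose and 14.5% fell as counted, shares near those of the list. Enzymes of cholesterol synthesis were among those that rose, such as Fdft1 by 0.42 and Idi1 by 0.41, and those that fell included the regulator gene Srebf1, from 247, 248 and 244 CPM to 188, 180.1 and 178 CPM (log2 fold change -0.44, corrected -0.22), and the fatty acid elongase gene Elovl6, by 0.52 (edgeR adjusted p = 3.94e-05, 6.29e-05, 1.12e-05 and 2.99e-05). In glycolysis 8 of 23 rose and 2 fell, against 0 higher and 7 lower on the FPKM scale and 13 higher and 3 lower after the correction. The glycolysis list's median level, 175.3 CPM, lies in the quartile of highest level. As counted, its shares were under the 40.8% that rose and 14.5% that fell in that quartile. The hexokinase gene Hk2, whose product docks on mitochondria, was at 60.3, 59.8 and 57.3 CPM with wild type and 35.1, 32.1 and 29.4 CPM with V465F (log2 fold change -0.88 ± 0.0770, edgeR adjusted p = 1.1e-07), and the lactate exporter gene Slc16a3 fell by 0.56. Fdft1, Idi1, Srebf1, Elovl6 and Hk2 overlap a gene on the opposite strand. Zinc finger genes named Zfp, a large family with many long 3-prime ends, had 164 of 340 lower and 13 higher (median -0.43; 126 lower, 26 higher and a median of -0.27 after the correction). Zfp334 was at 20.5, 20.3 and 20.6 CPM with wild type and 10.2, 10.3 and 10.0 CPM with V465F (edgeR adjusted p = 9.4e-08), while Zfp207, a mitotic spindle regulator, rose by 0.55.

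V465F was also set against V560F, which asks whether the mutants differ. Of 13074 genes 1 (0.00765%) was called, with 2373 at an unadjusted p under 0.05 (18.15%), and DESeq2 called 160 and limma on FPKM 1. That gene was Slbp, which binds the stem loop of histone mRNA. It was at 50.9, 49.5 and 53.8 CPM with V465F, 66.8, 75.3 and 73.4 CPM with V560F and 44.7, 45.4 and 49.7 CPM with wild type. Its log2 difference of V465F minus V560F was -0.48 ± 0.0704 (edgeR adjusted p = 0.00889), and V465F against wild type was not called (log2 fold change 0.14, edgeR adjusted p = 0.117). The count was not stable: without V560F replicate 1 it was 834, and without V560F replicate 3, V465F replicate 1 or V465F replicate 2 it was 0. Without the libraries that stood apart it was 18. Medians of V465F minus V560F were -0.26 for cytosolic ribosomal proteins, -0.22 for complexes II to V, -0.18 for complex I and -0.36 for histones, against -0.02 for all genes. By edgeR no member of any list was called here, with 81 of 86 ribosomal protein genes and 25 of 40 genes of complexes II to V lower than in V560F at an unadjusted p under 0.05. The transcripts of these lists are short, with median lengths of 827, 895, 845 and 487 bases in the same order, against 3661 for all genes. The length slope was -0.820 to -0.309 in V560F libraries and -0.304 to -0.219 with V465F. No corrected median was taken for this contrast, and the part of length in it was not tested. For the genes above, Fos differed by -0.27 ± 0.128, Egr1 by 0.06 ± 0.0784, Nfkbia by -0.33 ± 0.0817, Junb by -0.44 ± 0.112 and Bmf by -0.12 ± 0.155, none called (edgeR adjusted p = 0.27, 0.708, 0.127, 0.127 and 0.701). A p that misses the threshold does not show that the mutants act alike.

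The nearest to a difference among genes higher with V465F were Aldh1l2, a mitochondrial folate enzyme gene, at 115 ± 6.70 CPM against 87.8 ± 7.20 CPM with V560F, and Serpinf1, which encodes the neurotrophic factor PEDF, at 27.9 ± 2.44 against 19.6 ± 1.27 CPM (edgeR adjusted p = 0.0716 and 0.0853). Serpinf1 also rose over wild type, by 0.75 (edgeR adjusted p = 8.74e-06). Celf4, Dnm1 and Wars followed, at differences of 0.37, 0.34 and 0.49 (edgeR adjusted p = 0.0853, 0.0853 and 0.0909). Among those lower with V465F were the dUTPase gene Dut, at 59.9 ± 3.31 against 82.4 ± 8.88 CPM, and Zfp367, at 55.4 ± 0.921 against 72.5 ± 3.14 CPM (edgeR adjusted p = 0.069 and 0.0853). Each of these rose over wild type with V465F, by 0.37 and 0.39. Ankra2 and Ofd1 differed by -0.41 and -0.38 and were not called (edgeR adjusted p = 0.0853 and 0.0853).

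The response to V465F was set beside that to the knockdown itself, a contrast of 3 knockdown with 3 control libraries that shares no library with the V465F contrast. In the knockdown 4689 genes (35.9%) were called, 2599 higher (19.9%) and 2090 lower (16%). Called in the same direction in each contrast were 2287 genes, 45.9% of the V465F calls and 48.8% of the knockdown calls, and 183 were called in opposite directions. The shared share was 58.1% of V465F rises and 34.8% of V465F falls. Across the 13074 genes the log2 fold changes had a Pearson r of 0.454 and a Spearman rho of 0.503, which were 0.421 and 0.447 after the correction. These correlations are across genes, which are not independent replicates, and are given as a description.

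The difference of the effects, V465F minus wild type less knockdown minus control, was tested for each gene in the same fit. It was called in 1610 genes (12.3%), 448 in which V465F was the more positive (3.43%) and 1162 in which it was the more negative (8.89%). After the correction 16.8% were called, 6.07% more positive and 10.8% more negative. Egr1 had a difference of 1.55 ± 0.113 and Nfkbia of 0.84 ± 0.117 (edgeR adjusted p = 4e-08 and 0.000114), and Nfkbia was at 0.07 with the knockdown (edgeR adjusted p = 0.543). Junb and Chac1 differed by 0.88 and 1.01 (edgeR adjusted p = 0.00129 and 0.000112). Of 11 AP-1 genes 4 were more positive and 1 more negative in the difference (median 0.005), and 6 rose with the knockdown. The EGR and serum response factor list had 2 and 2 of 27 (median 0.13). Of 22 NF-kB genes 3 were more positive and 0 more negative, with 1 at an unadjusted p (median 0.05). In the integrated stress response list 3 of 39 were more positive and 5 more negative (median 0.0008), and 20 rose with the knockdown. Of the ERK feedback inhibitors 7 of 17 were more negative with V465F and 0 more positive, with 1 more positive at an unadjusted p under 0.05 by edgeR. After the correction 6 were more negative and 1 more positive. Spry2 rose with the knockdown, by 0.47, and fell with V465F, a difference of -1.04 ± 0.108 (edgeR adjusted p = 5.4e-06), and Spred2 was at 0.05 with the knockdown, a difference of -0.95 ± 0.104 (edgeR adjusted p = 9.4e-06). In the BMP and TGF-beta list 11 of 27 were more negative and 0 more positive, with 0 more positive at an unadjusted p. With the knockdown 5 of these genes rose and 0 fell, with 0 lower at an unadjusted p under 0.05 by edgeR. Axon guidance genes had 8 of 33 more negative and 0 more positive, with 3 at an unadjusted p. After the correction 11 were more negative and 2 more positive.

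Other groups held calls in the same direction in each contrast. Of 86 cytosolic ribosomal protein genes 74 rose with the knockdown and 84 with V465F, and 0 and 0 were more positive and more negative in the difference (2 and 0 at an unadjusted p under 0.05, edgeR). After the correction 2 were more positive and 0 more negative. Of 40 genes of complexes II to V 31 rose with the knockdown and 34 with V465F, with 0 and 0 in the difference (1 and 1 at an unadjusted p). After the correction 1 was more positive and 2 more negative. Zfp genes fell in 146 cases with the knockdown and 164 with V465F, and in the difference 30 were more negative with V465F and 10 more positive (32 and 19 after the correction). Endoplasmic reticulum chaperone genes rose in 14 cases with the knockdown and 16 with V465F. A difference that missed the threshold does not show that the effects were equal. Bmf fell in each contrast, by 0.65 with the knockdown and 1.81 with V465F on the log2 scale, and the difference was called (-1.16 ± 0.171, edgeR adjusted p = 0.000202).

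**Figure D5:**
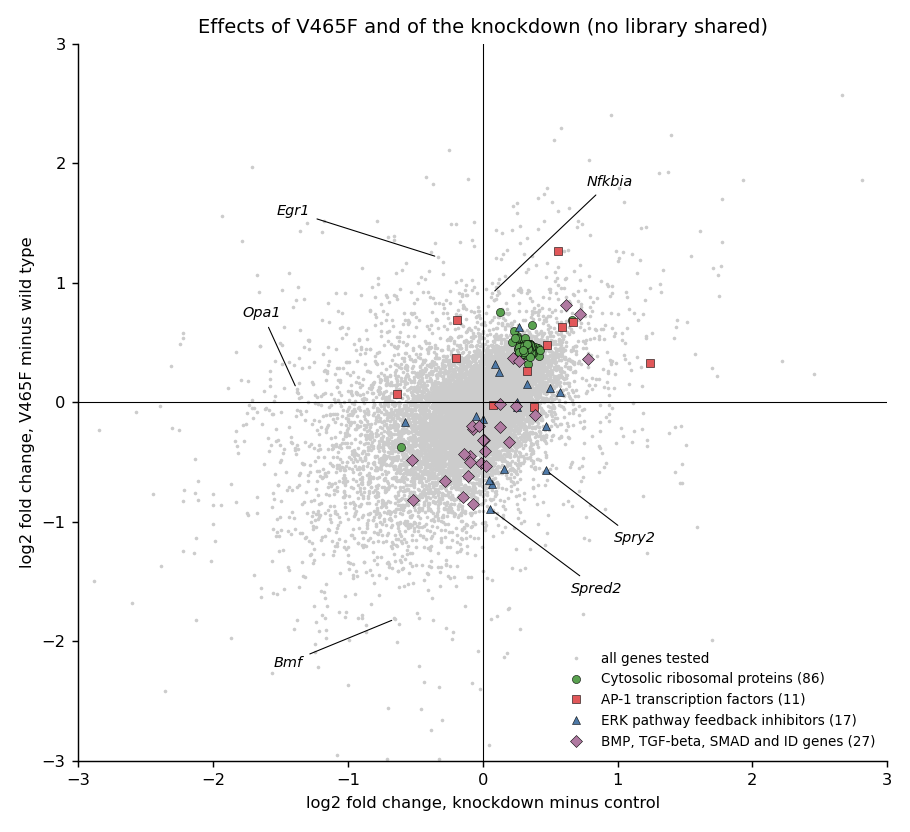
Log2 fold change of V465F over wild type (vertical axis) against that of knockdown over control (horizontal axis) for the genes tested, with 4 lists in colour; 4 genes lie more than 3 log2 units from 0. Cytosolic ribosomal genes (circles) lie in the upper right, while ERK feedback inhibitors (triangles) and BMP and TGF-beta genes (diamonds) include genes below 0 with V465F and near or above 0 with the knockdown, such as Spred2 and Spry2.

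The labelled cell type was read from defining markers. The neuronal markers summed to 1614 to 1805 CPM with wild type and 2049 to 2074 CPM with V465F, led by Tubb3 and Stmn2, which rose by 0.35 and 0.34, while the RNA-binding protein gene Elavl4 fell by 0.66 (edgeR adjusted p = 0.000257, 0.00229 and 2.54e-06). Nefm was at 0 in all 6 libraries, and Nefl and Dcx were at or under 0.161 CPM. Sympathetic neuroblast markers summed to 614.5 to 648.3 CPM against 489.2 to 535.4 CPM. Markers of 3 other cell types were near 0 on each side: astrocyte markers summed to at most 0.698 CPM, macrophage and microglia markers to at most 0.806 CPM and epithelial markers to at most 0.689 CPM. Fibroblast markers summed to 5.05 to 6.45 CPM and endothelial markers to 10.4 to 14.9 CPM. Oligodendrocyte and Schwann cell markers summed to 19.8 to 23.3 CPM with wild type and 14.3 to 18.2 CPM with V465F, most of it Mbp, at 18.5, 21.8 and 18.6 CPM against 16.8, 14.1 and 12.4 CPM (log2 fold change -0.45, edgeR adjusted p = 0.00654, and 0.0637 after the correction), while Sox10 and Mog were at or under 0.122 CPM. Muscle markers summed to 5.01 to 6.36 CPM. Col1a2, Lum, Cdh5, S100b and Myod1 were at 0 in all 6 libraries. The part of the neuronal, sympathetic and oligodendrocyte marker levels in the other differences was not tested.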

How the data were processed

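RNA-seq counts per gene and FPKM values of 15 libraries were deposited by the authors in 1 table. The submitters' processing notes name fastp, HISAT2, HTSeq, R 3.2.0 and the build GRCm39; the versions of fastp, HISAT2 and HTSeq, the annotation, the strand setting and any filter are not given in the sources used here. The deposited counts are raw, and the authors' FPKM equalled the counts over gene length and over the library's summed counts within a relative gap of 1.2e-06. Rows with a sum of 0 in every library numbered 0, and no numeric column lacked a sample. The totals of 20070123 to 27809960 counts set the precision.

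Genes were tested with edgeR 4.0.16 in R 4.3.3 (TMM scaling, filterByExpr, quasi-likelihood test, 1 mean per group over all 15 libraries, Benjamini-Hochberg adjustment over 13074 genes, adjusted p under 0.05). Contrasts were V465F against wild type, V465F against V560F, knockdown against control, and the difference of the V465F and knockdown effects, which was added later. The correction removed from each library a spline with 5 degrees of freedom in transcript length and GC content; GC was known for 12510 genes (95.7%) from GENCODE M21 on GRCm38, which also gave overlaps between genes and no coordinate. Alternatives were DESeq2 1.42.0, other scalings, no filter, limma 3.58.1 on log2(FPKM + 1), fewer libraries, the replicate number as a block, and thinning to the smallest total, which was chosen after seeing the data. Same-numbered libraries of V465F and wild type had correlations of 0.000147, 0.0102 and 0.0521 in their deviations from the group means, so the numbers were not taken as pairs.

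In data simulated for V465F against wild type with 13074 genes, of 50 genes changed at each size the test recovered 34% at 1.25-fold, 70% at 1.5-fold, 74% at 2-fold and 92% at 3-fold, and 4.26% of calls were false. Only those genes were changed in the simulation, and no trend with length or level was put in. In the real libraries 38.2% of genes were called and such trends were present, so these rates need not hold for them. Genes were named by a rule: Opa1; the 15 largest rises and 15 largest falls among called genes with a mean of at least 5 CPM over the 6 libraries, no overlap between groups and a gene symbol; up to 4 called members of each list with the lowest adjusted p, or 2 members where none was called; and the 5 rises and 5 falls with the lowest adjusted p against V560F. Other genes named, such as Cxcl1, Egr2, Jun, Atf3, Nfkb1, Rela, Mfn2, Mief1, Dele1, Smad7 and Immt, and the genes given as not called, were chosen after their values were seen. The comparison and the gene lists were chosen with earlier results of these data known. RefSeq promoter windows on GRCm38.p6, apart from those of a chromosome that was left out, were searched on both strands. The letters were those of the NF-kB site, the CArG box, TGACGTCA, and TGACTCA or TGAGTCA. A few genes the rule names are not reported here.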

Additional observations from a re-analysis of the deposited data

Results flagged for a closer look

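Slbp, which binds the stem loop of histone mRNA, differed between the mutants. The V465F minus V560F log2 difference was -0.48 (edgeR adjusted p = 0.00889), with all 3 V465F libraries below all 3 V560F libraries. It was the 1 gene of 13074 for which edgeR's test of the difference between the mutants passed the threshold.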

How the results depend on the processing

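For V465F against wild type, DESeq2, other scalings, no filter, thinning and the libraries compared alone kept the numbers of genes higher, lower and at 1.5-fold or more within 1.5 times of 2367, 2621 and 1112. limma on FPKM, which changes test, transform and scaling together, gave 972, 4297 and 521. Leaving out in turn 1 of the 6 libraries compared kept these 3 counts within 1.5 times, with 1954 to 2559 lower and 884 to 1329 at 1.5-fold or more, and leaving out V560F replicate 2 gave 2762 higher and 2984 lower. For V465F against V560F the 1 call became 580 without the filter, 160 with DESeq2, 65 with the length and GC correction, 18 without the libraries that stood apart, and 0 in a fit of the libraries compared alone; leaving out 1 library in turn gave 0 to 834. The cause of these shifts was not tested. With the replicate number as a block the counts were 2367 higher and 2628 lower, 3 genes differed from V560F, and 360 did with the block and the length and GC correction together. Bcl2l13 turned from -0.17 to 0.0167 with the length and GC correction, and to 0.016 with that correction and the block. The count called the same way in the knockdown stayed within 1.5 times of 2287 in all alternatives run. Of 3140 values of 175 named genes under alternatives, 3068 kept direction and call, 59 lost a call, 11 gained one and 2 reversed, and 19 of 169 called genes lost their call somewhere. Of 1332 list counts 195 moved by over 1.5 times. Thinning to the smallest total gave 2322 higher and 2551 lower; depth by level of gene was not tested.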
